A study of Mus musculus with 24 samples.

Results

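The 10 genes Mbp, Mog, Mag, Cnp, Mobp, Sox10, Olig1, Olig2, Pdgfra and Cspg4, which mark cells of the oligodendrocyte lineage, were followed by ATAC-seq in NeuN-sorted nuclei of the mouse striatum. Every peak of the deposited count table whose gene label was one of these 10 symbols was taken, which gave 82 of 147020 peaks. A gene label names the nearest annotated start, so a labelled peak can lie inside another gene. Mbp held 43 of the 82 peaks, Mobp 10, Olig2 5, Cnp, Cspg4, Olig1 and Pdgfra 4 each, Mag and Mog 3 each, and Sox10 2.

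The tissue came from C57BL/6 mice aged 12 months, in 4 genotypes of 6 animals each (3 female, 3 male). WT animals carried neither altered allele. Q140 animals were heterozygous for a knock-in of Htt with an expanded CAG repeat, a model of Huntington's disease. Msh3KO animals had the genotype Msh3-/- and lacked a DNA mismatch repair protein that somatic growth of CAG repeats requires. Q140_Msh3KO animals carried both changes. Nuclei stained for NeuN, a protein of most mature neuronal nuclei, were sorted from frozen tissue, and the same number of nuclei per sample was transposed. ATAC-seq cuts DNA that nucleosomes leave accessible, and a peak is a region where such cuts gather. Replicates were separate animals. Libraries are named by genotype, sex and number, such as Q140 F2.

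As background, oligodendrocytes wrap axons in myelin and arise from precursors that divide in the adult brain. Olig1, Olig2 and Sox10 are transcription factors that establish and hold the lineage, and SoxE factors such as Sox10 act with Myrf on myelin genes. Pdgfra is the growth factor receptor of the precursors and Cspg4 is their NG2 proteoglycan. Mbp compacts the myelin sheath, Mobp is a further basic myelin protein, Mag and Mog are surface proteins of the sheath, and Cnp is an enzyme of its cytoplasmic channels. Mature neurons carry NeuN and use none of these genes as identity genes, so the genes were taken as markers of a lineage other than the one collected. Which cells gave the cuts at a labelled peak was not tested. Mbp is a special case, because its long transcripts, known as Golli, begin far upstream of the start used for myelin and are also made in neurons.

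The bases just before 4 of the gene starts are printed to show where accessible DNA met a myelin or lineage promoter and where it did not. Each is the 250 bases before an annotated start, read 5′ to 3′ on the gene's strand, from RefSeq on GRCm38.p6. Capitals mark the bases inside a deposited peak. Windows of 7 of the 10 genes were used, 9 windows in all, and in 3 of these genes a peak reached into a window. The Pdgfra window lies before a different start from the one that a Pdgfra peak spans.
Olig2 (chr16:91225300-91225549, plus strand): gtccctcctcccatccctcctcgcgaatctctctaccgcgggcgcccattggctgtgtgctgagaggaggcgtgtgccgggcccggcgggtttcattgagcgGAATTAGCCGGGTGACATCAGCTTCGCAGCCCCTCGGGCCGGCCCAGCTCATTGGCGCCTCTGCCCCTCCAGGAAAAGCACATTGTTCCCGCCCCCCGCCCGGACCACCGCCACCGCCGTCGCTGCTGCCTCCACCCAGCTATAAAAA
Mog (chr17:37023399-37023648, minus strand): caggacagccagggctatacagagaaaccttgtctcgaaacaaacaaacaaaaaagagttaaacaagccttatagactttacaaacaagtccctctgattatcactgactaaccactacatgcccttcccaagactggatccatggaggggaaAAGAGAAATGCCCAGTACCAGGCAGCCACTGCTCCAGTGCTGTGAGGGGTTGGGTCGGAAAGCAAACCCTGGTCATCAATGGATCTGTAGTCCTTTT
Mag, outermost start (chr7:30914923-30915172, minus strand): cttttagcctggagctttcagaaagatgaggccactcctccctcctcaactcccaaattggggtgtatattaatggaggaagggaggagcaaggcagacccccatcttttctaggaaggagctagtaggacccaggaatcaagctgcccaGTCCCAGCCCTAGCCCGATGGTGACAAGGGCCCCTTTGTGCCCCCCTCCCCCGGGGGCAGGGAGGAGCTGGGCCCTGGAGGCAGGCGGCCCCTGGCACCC
Mobp (chr9:120149492-120149741, plus strand): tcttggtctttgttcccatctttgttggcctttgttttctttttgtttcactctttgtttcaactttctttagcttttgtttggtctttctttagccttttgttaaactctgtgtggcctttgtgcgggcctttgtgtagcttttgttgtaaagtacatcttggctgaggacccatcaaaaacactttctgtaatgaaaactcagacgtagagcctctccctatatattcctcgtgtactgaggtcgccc
The peaks covered 148 bases of the Olig2 sequence, 97 of the Mog sequence, 100 of the Mag sequence and 0 of the Mobp sequence. GC content was 66.8% for Olig2, 46.8% for Mog, 61.2% for Mag and 40.8% for Mobp, where the median over all 32851 RefSeq windows was 52.4%.

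Short motifs were searched as exact letters on both strands in the same windows, the 250 bases before each start. No window of Mbp, Olig1 or Sox10 was among the 9, so the starts of these genes were not searched. CTGGCAC, a core of the Myrf site, was in 3 of the 9 windows, and 4.19% of all windows held it. Those 3 matches are 2 places: in Mag 1 place lies in 2 overlapping windows, 9 bases before the outermost start and 68 before the next, and in Cnp the match begins 81 bases before the start. In the Mag sequence above that match lies among the capitals. ACAAT, a SoxE core, was in 2 of 9 windows against 27.7% of all windows. One of these is Olig2, where the overlapping forms ACAATG and AACAAT begin 68 and 67 bases before the start on the other strand, inside the peak. The E-box CANNTG was in 4 of 9 windows against 66.2% of all windows, and its forms CAGCTG and CATATG were in 0 of 9. A match is a string of letters and not a measured binding site.

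Total counts in peaks ran from 4372251 to 11736557 per library, and 18.4% to 24.8% of them lay in peaks of the promoter class. All 82 peaks passed the filter on low counts. They held a median of 33.2 counts per library, from 10.2 for the lowest to 491 for the highest. The sort was checked against marker genes. Of neuronal genes 6 of 6 had a peak of the promoter class, as had 8 of 9 genes of striatal projection neurons, 1 of 7 astrocyte genes, 1 of 7 microglial genes and 2 of 7 endothelial and pericyte genes. Of the 10 oligodendrocyte lineage genes, 6 had one: Mbp, Mog, Mag, Cnp, Sox10 and Olig2. Olig1 and Pdgfra each had a peak that spans an annotated start but is classed as exon or intron. The centres of these peaks lay 321 and 249 bases from the start. Bulk libraries of sorted nuclei cannot tell fewer nuclei of a type from lower accessibility in each nucleus.

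Levels are CPM, the count scaled to a common library size by TMM, and levels of different genes are compared as CPM per kb of peak width. In WT the promoter peaks of the 6 genes held from 6.11 CPM per kb for Mog to 24.1 for Cnp. Among all 10177 promoter peaks, ranked by WT CPM per kb, Mog was at percentile 4.66, Olig2 at 5.97, Mbp at 19.7, Sox10 at 25.4, Mag at 33.1 and Cnp at 74.4. The median percentile was 22.5 for these 6 genes, 73.9 for neuronal genes and 65.9 for genes of striatal projection neurons. It was 14.6 for 10 promoters of other mature oligodendrocyte genes such as Cldn11 and 10.7 for 4 promoters of other lineage transcription factors. Thus 5 of the 6 promoter peaks lay low among promoters, and Cnp stood in the range of the neuronal genes, next to Snap25 at 24.0 CPM per kb.

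**Figure D1:**
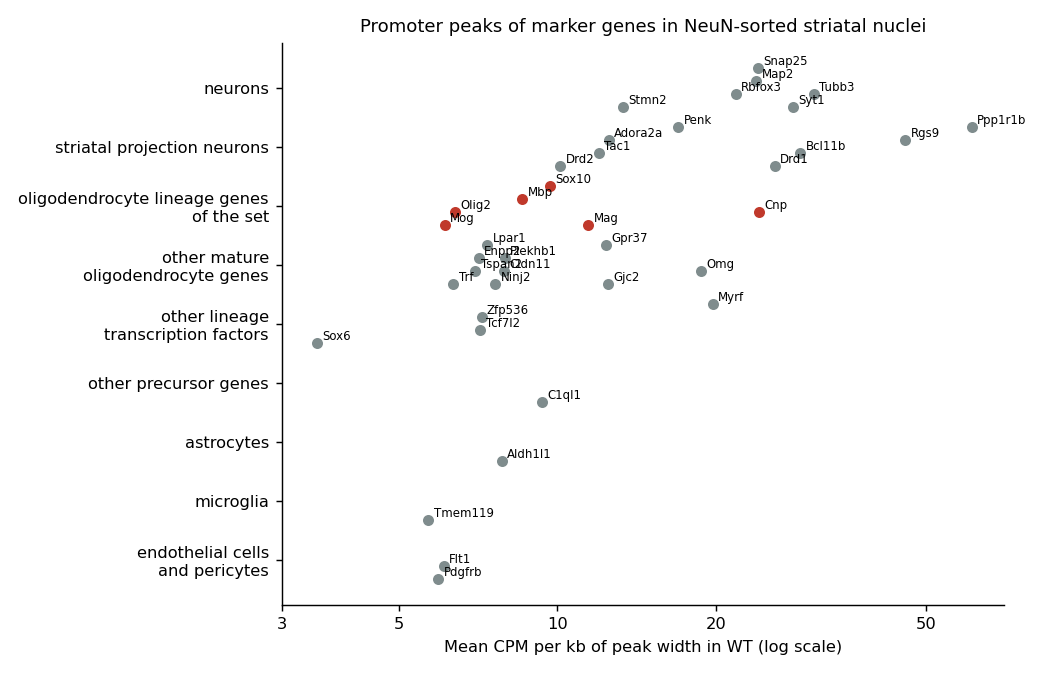
Mean accessibility of promoter peaks in WT (6 animals), in CPM per kb of peak width on a log scale, by marker list; each point is 1 gene with a peak of the promoter class, and the vertical offset within a list only separates labels. Of the 6 red points 5 lie between 6.11 and 11.5, and Cnp lies at 24.1 among the neuronal genes.

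The summed level of the 6 promoter peaks was alike in the genotypes. It was 19.7 ± 2.28 CPM in WT (SD, n = 6), 19.8 ± 2.31 in Q140, 20.2 ± 3.03 in Msh3KO and 19.6 ± 4.33 in Q140_Msh3KO, and the ranges overlapped. The neuronal promoters summed to between 173 and 174 CPM in each genotype. The astrocyte list had 1 promoter peak, the microglial list 1, and the endothelial and pericyte list 2, with mean sums between 2.45 and 3.93 CPM per list over the genotypes. Sums of so few peaks cannot be set beside the sums of 6.

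Mbp was the gene with the most accessible sites. Its 43 peaks fell along 5 stretches: 3 upstream of the gene, 20 in the part that only long transcripts span, 9 from the short start on, 4 between Mbp and the neighbouring Zfp236, and 7 inside Zfp236, a zinc finger gene. The peak over the start of the long transcripts (chr18:82474871-82476108, singled out after its values were seen) held 23.0 ± 4.21 CPM in WT, or 18.6 CPM per kb. The peak over the short start used for myelin (chr18:82554295-82554743) held 3.85 ± 0.74 CPM, or 8.58 CPM per kb. Over the short start the WT values ran from 2.96 to 4.84 with a median of 3.92, and over the long start from 19.5 to 30.4 with a median of 21.1, so the ranges were apart on the CPM scale. The highest Mbp peak lay in exon 21 of Zfp236 (chr18:82620781-82621771), at 25.7 ± 3.56 CPM in WT, which shows how the nearest start can label a peak of another gene.

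**Figure D2:**
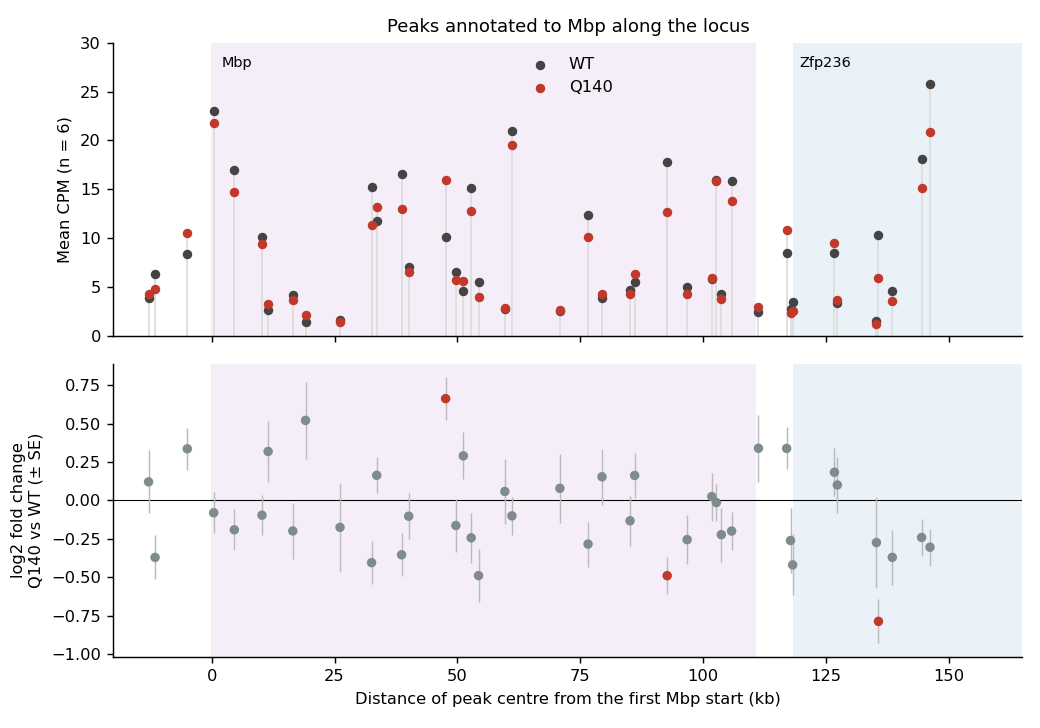
The 43 peaks labelled Mbp by distance of the peak centre from the first Mbp start (kb); the upper panel gives mean CPM in WT and Q140 (n = 6 each), and the lower panel the log2 fold change ± SE, red where the adjusted p was under 0.05. Shading marks Mbp and Zfp236; 1 of the 3 red points lies above 0, in the part of Mbp that only long transcripts span, and the 2 below 0 lie near the Mbp end and inside Zfp236.

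The first comparison set Q140 against WT, the expanded Htt allele with Msh3 intact. Of the 82 peaks 5 passed the test, 2 higher and 3 lower, in Mbp, Mobp and Cnp, and 0 peaks of the other 7 genes did. Over all peaks tested 10.3% passed, against 6.10% of the 82, so the lineage genes did not exceed the background. At an unadjusted p under 0.05 there were 21 peaks (25.6%, against 21.3% of all). The median log2 fold change was -0.05 over the 82 and -0.01 over all peaks, and the median size was 0.20 and 0.19. Tests here and below are edgeR's quasi-likelihood test with Benjamini-Hochberg adjustment over 146155 peaks, and all comparisons come from 1 fit to the 24 libraries.

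The strongest gain was in Mbp, in an intron of the long transcripts (chr18:82522271-82523116), which lies outside the transcripts made from the short start. It held 8.10 to 11.5 CPM in WT with a median of 10.2, and 12.0 to 20.2 with a median of 15.2 in Q140. Every Q140 animal lay above every WT animal. The log2 fold change was 0.66 ± 0.14 (SE, adjusted p = 0.000956). In Msh3KO the values ran from 5.09 to 10.2 with a median of 9.49, and in Q140_Msh3KO from 9.23 to 15.3 with a median of 9.996. Of the Q140_Msh3KO animals 5 of 6 lay below all Q140 animals, and 1 lay above all WT animals.

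A second Mbp peak was lower in Q140, in intron 2 of a transcript from the short start (chr18:82567442-82568122). It held 15.8 to 22.0 CPM in WT with a median of 17.1, and 10.6 to 14.2 with a median of 12.6 in Q140. The ranges did not overlap, and the log2 fold change was -0.49 ± 0.12 (adjusted p = 0.00439). In Q140_Msh3KO it held 14.8 to 20.4 CPM with a median of 17.2, above all 6 Q140 animals. In Msh3KO it held 13.6 to 21.2 with a median of 16.9.

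The third Mbp-labelled peak lay in intron 24 of Zfp236 (chr18:82610529-82611045), and was the most reduced of the 82. It held 7.48 to 12.0 CPM in WT with a median of 10.7, and 4.74 to 7.45 with a median of 5.85 in Q140. The groups did not overlap, though by a narrow gap, and the log2 fold change was -0.79 ± 0.14 (adjusted p = 0.000146). Q140_Msh3KO animals held 7.58 to 9.62 CPM with a median of 8.26, again above every Q140 animal. Msh3KO animals held 6.21 to 11.4 with a median of 10.6.

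In Cnp the peak that fell lies in intron 8 of the neighbouring gene Ttc25 and over a SINE repeat (chr11:100561912-100562247). It held 3.43 to 4.87 CPM in WT with a median of 3.81, and 1.74 to 2.84 with a median of 2.40 in Q140, with no overlap. The log2 fold change was -0.77 ± 0.19 (adjusted p = 0.00353). Its values in Q140_Msh3KO overlapped those of Q140, at 2.04 to 3.23 with a median of 2.20. Msh3KO animals held 1.77 to 3.89 with a median of 2.88, and 4 of 6 lay below all WT animals. Counts at this peak were small, from 8 to 43 per library.

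The Mobp peak that rose is intergenic, upstream of the gene (chr9:120140637-120141114). It held 3.29 to 4.94 CPM in WT with a median of 3.74, and 4.64 to 6.03 with a median of 5.56 in Q140. Here 5 of 6 Q140 animals lay above all WT animals, and the log2 fold change was 0.46 ± 0.15 (adjusted p = 0.0428). This call was lost in 12 of the 32 alternatives, among them DESeq2, no filter on low counts, Q140 F2 and Q140_Msh3KO M1 left out together, and any 1 of Q140 F1, F2, F3 or M1, WT F2, F3 or M2, or Q140_Msh3KO F2 left out, with adjusted p up to 0.128. The other 4 calls held in all 32 alternatives tried for each.

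**Figure D3:**
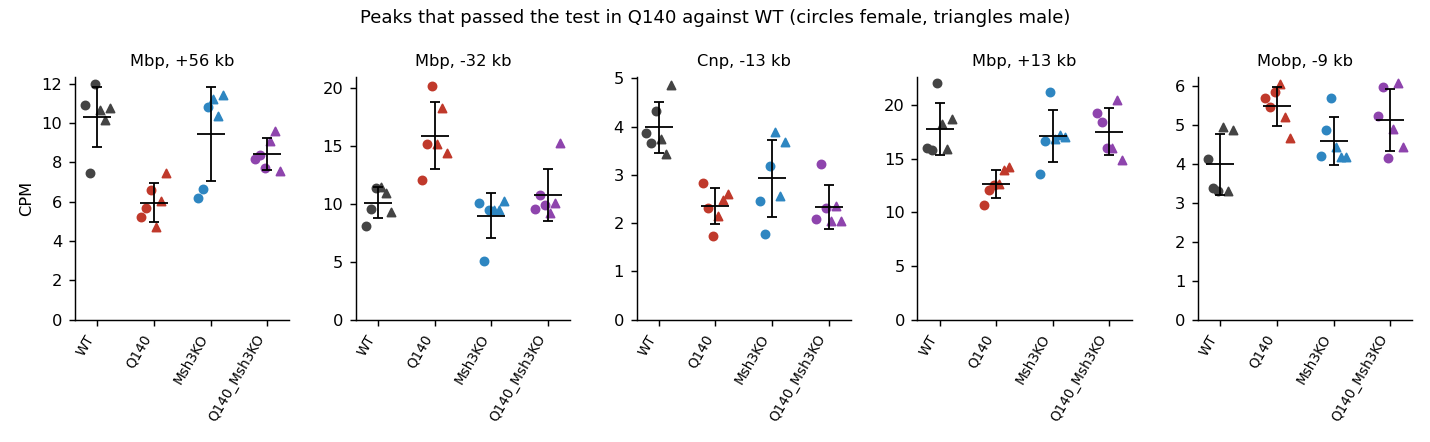
CPM per animal for the 5 peaks that passed the test in Q140 against WT, by genotype; circles are females, triangles males, and bars give mean ± SD (n = 6). Titles give the distance to the nearest annotated start in kb; in the 3 Mbp panels and the Cnp panel every Q140 animal lies apart from every WT animal, and in the Mobp panel the ranges overlap.

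The gene starts were examined next. For each gene the promoter peak nearest its start was taken, or the peak nearest the start where it had none. None of these 10 start peaks passed in any comparison. In Q140 against WT their log2 fold changes ran from -0.36 to 0.30 with a median of -0.03, and the lowest adjusted p was 0.150.

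Among the myelin genes, the Mog promoter peak held 1.14 to 3.98 CPM in WT with a median of 1.60, and 1.29 to 2.95 with a median of 1.74 in Q140 (log2 fold change -0.02 ± 0.28, adjusted p = 0.983). The most accessible Mog peak is intergenic, upstream of the gene (chr17:37028416-37029226), at 16.4 ± 1.72 CPM in WT and 17.1 ± 2.44 in Q140. At 20.2 CPM per kb in WT it was more accessible than the Mog promoter at 6.11. The Mag promoter peak held 1.37 to 4.42 CPM in WT with a median of 2.43, and 1.51 to 3.05 with a median of 2.29 in Q140. Its values were wide in both genotypes, and the log2 fold change was -0.24 ± 0.29 (adjusted p = 0.731).

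Cnp had a promoter peak of 7.56 ± 1.31 CPM in WT and 7.43 ± 1.15 in Q140. Its strongest site was the most accessible of all 82 peaks, 1785 bases wide, in the last intron of Ttc25 (chr11:100570479-100572263). That site held 54.8 to 87.5 CPM in WT with a median of 61.7, and 42.6 to 59.8 with a median of 51.5 in Q140. It missed the threshold, at -0.37 ± 0.13 (adjusted p = 0.062), with 5 of 6 Q140 animals below all WT animals. It passed with no filter on low counts (adjusted p = 0.0295) and without WT M2, Msh3KO F2, Msh3KO F3 or Q140_Msh3KO F2 (adjusted p from 0.0245 to 0.0473). All 4 Cnp peaks lay below 0 in Q140 and in Q140_Msh3KO, each set against the same WT animals. Mobp had 7 of 10 peaks above 0 in Q140, and its highest peak, over a LINE repeat (chr9:120190936-120191947), held 7.65 ± 0.97 CPM in WT and 9.89 ± 1.58 in Q140 (0.36 ± 0.13, adjusted p = 0.0787). That peak passed when scaled by total counts (adjusted p = 0.0361) and without Q140 F3 or Msh3KO F2 (adjusted p of 0.0487 and 0.0495).

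Among the transcription factors no peak passed in any comparison. The Sox10 promoter peak (chr15:79164426-79164663) held 1.53 to 3.98 CPM in WT with a median of 2.06, and 1.62 to 3.07 with a median of 2.21 in Q140 (0.01 ± 0.26, adjusted p = 0.993). The Olig2 promoter peak (chr16:91225402-91225601), whose capitals are printed above, had the lowest CPM of the start peaks, though not the lowest CPM per kb. It held 0.592 to 1.93 CPM in WT and 0.774 to 2.36 in Q140 (0.22 ± 0.30, adjusted p = 0.773). At 3 to 20 counts per library in WT and Q140, a moderate difference may have been missed there, which was not tested. Olig1, a gene of 1 exon, had its strongest peak over its start and that exon (chr16:91269422-91270759). This peak held 9.23 to 13.5 CPM in WT with a median of 11.7 and 8.9996 to 11.7 with a median of 9.68 in Q140 (-0.23 ± 0.13, adjusted p = 0.323). The groups overlapped at all 3 of these sites.

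Of the precursor genes, all 4 Pdgfra peaks lay above 0 in Q140, from 0.13 to 0.30, and 0 passed. The Pdgfra peak nearest the start spans an annotated start and a CpG-rich stretch of intron 1 (chr5:75155885-75156946). It held 7.505 to 9.97 CPM in WT with a median of 8.69 and 9.45 to 12.3 with a median of 10.4 in Q140. Its log2 fold change of 0.30 ± 0.13 had an adjusted p of 0.150. Pdgfra lies on chromosome 5, which also carries Htt. Cspg4 had no peak at its annotated start; its nearest was in intron 1 (chr9:56876785-56877355), at 3.29 ± 0.85 CPM in WT and 3.22 ± 0.67 in Q140 (-0.06 ± 0.23, adjusted p = 0.931).

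**Figure D4:**
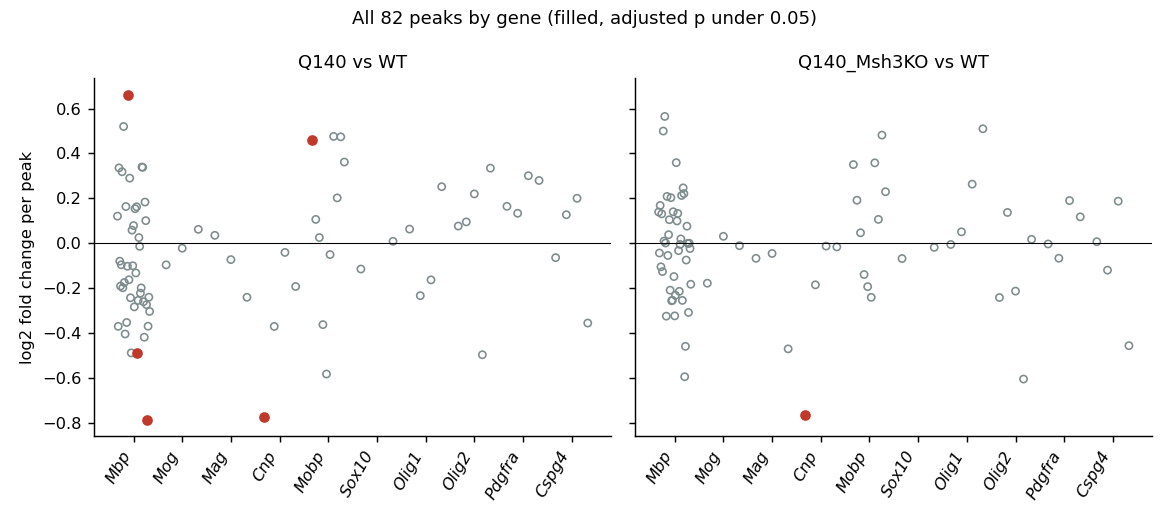
Log2 fold change of each of the 82 peaks by gene, in Q140 against WT and in Q140_Msh3KO against WT, which share the WT animals; filled points passed the adjusted threshold of 0.05. On the left 5 points are filled, and on the right 1, in Cnp; the 4 Pdgfra points lie above 0 on the left.

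The animals with both changes carry the expanded allele in the absence of Msh3. In Q140_Msh3KO against WT 1 of 82 peaks passed (0.525% of all peaks did): the Cnp-labelled peak in Ttc25, at -0.76 ± 0.19 (adjusted p = 0.0453), with all 6 animals below all WT animals. In Q140_Msh3KO against Q140 1 of 82 passed (0.529% of all): the gained Mbp peak, at -0.56 ± 0.14 (adjusted p = 0.0471). The 2 reduced Mbp peaks were higher in Q140_Msh3KO than in Q140 by 0.46 ± 0.12 (adjusted p = 0.0643) and 0.48 ± 0.15 (adjusted p = 0.140), which missed the threshold although the ranges did not overlap. The first of them passed with DESeq2 (adjusted p = 0.0322), with no filter (0.0347) and without WT M2 or Msh3KO F3 (0.0348 and 0.0478). Neither of the 2 calls held throughout. The Cnp call held when WT M2, Q140 F1, F2 or F3, Msh3KO F2 or F3, or Q140_Msh3KO F2 was left out and was lost without any 1 of the other 17 libraries, with adjusted p up to 0.165. The Mbp call held without WT F1, F2 or F3, Q140 F1 or M3, Msh3KO F1, F2 or F3, or Q140_Msh3KO M3 and was lost without any 1 of the other 15 (adjusted p up to 0.165) and with limma-voom.

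In Msh3KO against WT 0 of 82 peaks passed (0.013% of all did), with 3 at an unadjusted p under 0.05. In Q140_Msh3KO against Msh3KO 0 passed (0.116% of all), with 2 under 0.05. The interaction, the Q140 effect with Msh3 minus the effect without it, passed in 0 of 82 (0.0226% of all), with 4 under 0.05. So a difference of the Q140 effect between the Msh3 genotypes was not shown for any of these peaks. Its smallest p was at the reduced peak inside Mbp, at -0.51 ± 0.17 (adjusted p = 0.355), and the gained Mbp peak had 0.41 ± 0.20 (adjusted p = 0.683). Males against females gave 0 of 82 (0.169% of all), with 2 under 0.05. DESeq2 and limma-voom also called 0 peaks in each of these 4 comparisons.

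Counts summed over all peaks of a gene gave 1 value per gene, tested among the sums of 20851 genes. In Q140 against WT 1 of the 10 genes passed, Cnp, where 12.9% of all genes did. The Cnp sum was 69.3 to 99.5 CPM in WT with a median of 77.9 and 57.4 to 68.2 with a median of 64.1 in Q140, with no overlap. Its log2 fold change was -0.34 ± 0.10 (adjusted p = 0.0199), and most of it is the wide site inside Ttc25. The call was lost without WT F3 (-0.27, adjusted p = 0.0657) and when libraries were scaled by total counts (-0.31, adjusted p = 0.0674). The Mobp sum was higher by 0.20 ± 0.07 (adjusted p = 0.077) and the Pdgfra sum by 0.25 ± 0.09 (adjusted p = 0.0622), and both passed when scaled by total counts, with adjusted p of 0.0437 and 0.0494. Mobp also passed without Q140 M3, and Pdgfra without Msh3KO M2, Q140 F1, Q140 F3 or Q140_Msh3KO F3. The Mbp sum was 350 to 403 CPM in WT and 331 to 380 in Q140 (-0.11 ± 0.05, adjusted p = 0.115). In the other comparisons 0 of 10 sums passed, where 0.0192% to 0.82% of all gene sums did.

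Other genes of the lineage were taken from 3 lists. Of 131 peaks of other mature oligodendrocyte genes, 5 rose and 8 fell in Q140 (9.92%), of 117 peaks of other lineage transcription factors 7 rose and 7 fell (12.0%), and of 88 peaks of other precursor genes 5 rose and 6 fell (12.5%), all beside 10.3% of all peaks. Peaks of single genes went both ways. Enpp2, which makes lysophosphatidic acid, had an intron peak that fell by 1.22 on the log2 scale (adjusted p = 7.04e-06) and a promoter peak that rose by 0.59 (adjusted p = 0.0132). St18, a zinc finger factor, had a peak that fell from 11.3 ± 1.54 CPM in WT to 5.49 ± 0.50 in Q140, and held 8.81 ± 1.03 in Q140_Msh3KO. Zfp536, another zinc finger factor, had a peak that rose from 7.34 ± 3.04 to 18.3 ± 3.44 CPM and held 11.4 ± 2.39 in Q140_Msh3KO. Gpr17, a receptor of committed precursors, had a peak that fell from 7.84 ± 1.40 to 4.17 ± 0.36 CPM. This Gpr17 peak was also lower in Q140_Msh3KO than in Msh3KO, by 0.77 (adjusted p = 0.0228). A Tcf7l2 peak was higher in Q140_Msh3KO than in Msh3KO by 0.90 (adjusted p = 0.0190). Against WT it was higher by 0.76 (adjusted p = 0.0277). Each of these Q140_Msh3KO calls was lost with some single libraries left out. The interaction passed neither at the St18 peak (adjusted p = 0.215) nor at the Zfp536 peak (adjusted p = 0.343). In Q140 against WT 20 of 157 peaks of striatal projection neuron genes passed, 4 higher and 16 lower.

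Tnr, the matrix protein tenascin-R, held the gain of smallest p among the lineage peaks in Q140 against WT. Its intron peak (chr1:159568918-159569369) held 0.733 to 2.17 CPM in WT with a median of 1.64, and 4.25 to 6.83 with a median of 6.49 in Q140. In Msh3KO it held 1.67 to 3.32 with a median of 2.47, and in Q140_Msh3KO 1.67 to 5.21 with a median of 2.34. The gain was 1.95 ± 0.23 (adjusted p = 7.24e-08) with Msh3 present and 0.24 ± 0.24 (adjusted p = 0.930) without it, and the interaction was 1.71 ± 0.33 (adjusted p = 0.0389). It was the 1 peak of the 3 lists to pass the interaction. That call was lost in 17 of the 24 fits with 1 library left out, with adjusted p up to 0.101, while the gain in Q140 against WT held in all of them. Tnr is also made by some neurons.

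Whether the 6 promoter peaks vary together from animal to animal was examined in log2 CPM after subtracting the mean of each genotype and sex. Of 15 pairs 3 passed: Mbp with Mog, Mbp with Sox10, and Mog with Sox10. For Mbp and Mog r was 0.745 over 24 libraries (permutation p = 2.0e-05, adjusted p = 0.00030) and rho 0.794 (permutation p adjusted to 0.00015), and r was 0.768 without the 2 libraries farthest from the median of Mbp. For Mbp and Sox10 r was 0.651 (permutation p = 0.00055, adjusted p = 0.00412), rho 0.583 (permutation p adjusted to 0.0259) and r without 2 libraries 0.598. For Mog and Sox10 r was 0.581 (permutation p = 0.00301, adjusted p = 0.0150) and r without 2 libraries 0.481, but rho, at 0.508, had an adjusted permutation p of 0.0623. Permuting libraries only within their genotype and sex left 2 pairs by r, Mbp with Mog and Mbp with Sox10, at adjusted p of 0.00915 and 0.0331. By rho under the same permutation Mbp with Mog passed (adjusted p = 0.0048) and Mbp with Sox10 did not (adjusted p = 0.125). Cnp did not share this pattern, with r of -0.356 to Mbp (permutation p adjusted to 0.267). Without Q140 F2 and Q140_Msh3KO M1 that r was 0.003.

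**Figure D5:**
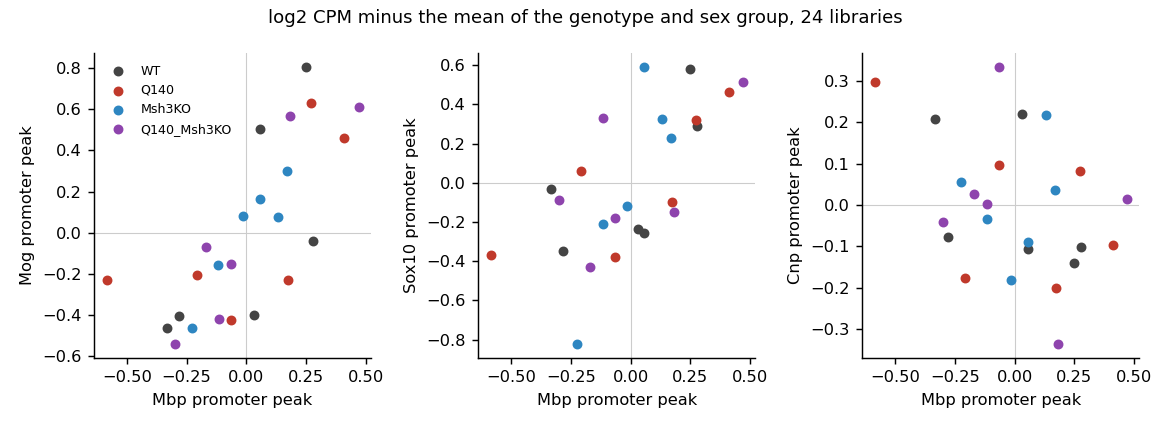
Promoter peaks of Mog, Sox10 and Cnp against that of Mbp, each as log2 CPM minus the mean of the genotype and sex group; each point is 1 of 24 libraries, coloured by genotype. Mog and Sox10 rise with Mbp (r of 0.745 and 0.651), and Cnp does not (r of -0.356).

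The 3 promoters that moved together held few counts, with means of 16.9 for Mog, 19.0 for Sox10 and 35.2 for Mbp. Their residuals were set against 2 measures of each library, total counts and the share of counts in promoter peaks, in 12 relations over the 6 promoters. None passed adjustment. The strongest was Sox10 with the promoter share, at r of -0.479 (permutation p = 0.0176, adjusted p = 0.154), rho of -0.403 and r of -0.345 without 2 libraries. As a description, the mean of the 6 promoters was correlated with 9544 other promoter peaks over the same 24 libraries, which share depth and scaling. Among the most alike were Tmem98 (r = 0.833), E130018N17Rik (0.822), Tbx20 (0.816), Ihh (0.813), Trp73 (0.813), Prrxl1 (0.797), Foxn4 (0.790), Lrrfip1 (0.783) and Oxr1 (0.780). None of these is in a lineage or marker list, and r over all promoters ran from -0.849 to 0.833 with a median of -0.201. The nearest lineage genes were Cldn11 (rank 277, r = 0.558), Trf (rank 290, r = 0.550) and Plekhb1 (rank 300, r = 0.544), while the neuronal genes Snap25 (-0.361) and Syt1 (-0.493) lay below 0.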

How the data were processed

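ATAC-seq was measured in 24 libraries, 6 per genotype. The deposited table holds raw read counts per peak, made by the authors. BWA, SAMtools, Picard, MACS2 and featureCounts on GRCm38 are named, without versions, per the submitters' processing notes. Peaks, gene labels and annotation classes are those of the table, per the file headers. Sharing 1 peak set, the libraries can be compared peak by peak.

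From these counts edgeR 4.0.16 (R 4.3.3) was run with TMM scaling, filterByExpr (minimum count 10), a robust quasi-likelihood fit of genotype and sex, and Benjamini-Hochberg adjustment over 146155 peaks, with a threshold of 0.05. Every adjusted p in the text not named otherwise is from this test, and p-values measure the spread among animals. DESeq2 1.42.0, limma 3.58.1 (voom), other scalings, no filter, no sex term, a replicate block and each library left out were alternatives. The pairs of libraries within a genotype differed by 1.33 to 8.80 chi-square units per peak, and 0 of 60 were identical. The fit was tested on simulated data. Correlations used scipy 1.17.1 with 100000 permutations.

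Named peaks were each gene's start peak, its highest peak, every peak past the threshold and, per comparison, that of smallest p. Of other lineage genes up to 3 per direction were named by smallest p. Members, lists and tests were chosen with earlier results of these data known. No peak sequences were read. One promoter among those most alike to the lineage promoters is not reported here.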

Additional observations from a re-analysis of the deposited data

Results flagged for a closer look

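Of 160 groups of 6 animals examined, 11 had an animal whose gap to the next exceeded Dixon's critical value for its share of the group's range, and chance gives about 1 in 20. At the reduced Cnp peak Q140_Msh3KO F2 held 3.23 CPM. At the gained Mbp peak Msh3KO F2 was low at 5.09 CPM and Q140_Msh3KO M3 was high at 15.3 CPM. Q140_Msh3KO F3 was high both at the Mbp short start, at 7.71 CPM, and at the Cspg4 intron peak, at 5.81 CPM. In WT, F1 was low at 10.6 CPM at 1 Mbp peak (chr18:82508275), F2 was high at 4.25 CPM at another (chr18:82592734), and M2 was high at 3.98 CPM at the Sox10 promoter. Q140 F2 was high at 12.9 CPM at the highest Mobp peak, and Msh3KO F1 at 22.7 CPM in the Olig1 sum. At the Tnr peak Q140 F1 was low at 4.25 CPM.

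The Tnr peak also had an effect of Q140 that differed between the Msh3 genotypes, with an interaction of 1.71 on the log2 scale in edgeR's quasi-likelihood test (adjusted p = 0.0389). It was lost in 18 of 31 alternatives. The causes were not tested.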

How the results depend on the processing

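In Q140 against WT between 4 and 7 of the 82 peaks passed under every alternative run. In Q140_Msh3KO against WT 0 passed with the replicate block and without Q140 F2 and Q140_Msh3KO M1 together, and 0 to 1 with 1 library left out. In Q140_Msh3KO against Q140 2 passed with DESeq2, with no filter and with the replicate block, 0 with limma-voom and without those 2 libraries, and 0 to 2 with 1 left out. Of the gene sums 0 passed with promoter peaks only, 2 with scaling by total counts, and 0 to 2 with 1 left out. Of the promoter pairs 5 passed without the 2 libraries, the 3 named above and 2 more. These were Mbp with Olig2 (r = 0.553, adjusted permutation p = 0.0270) and Mag with Cnp (r = 0.531, adjusted permutation p = 0.0319). Neither of these 2 passed by rho (adjusted permutation p of 0.0858 and 0.136).

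Uncalled values near 0 changed sign. The Mog promoter had 0.045 with limma-voom, 0.010 with total counts and 0.037 without the 2 libraries. The highest Olig2 peak had -0.043 without the 2 libraries, and the Sox10 promoter -0.023 with no filter. With 1 library left out the ranges were -0.11 to 0.065 for the Cnp promoter, -0.15 to 0.050 for the Cspg4 start peak, -0.077 to 0.16 for the highest Mag peak, -0.39 to 0.048 for the Mag promoter, -0.23 to 0.060 for Mog (chr17:37019263), -0.16 to 0.27 for the Mog promoter, -0.011 to 0.15 for the highest Mog peak, -0.084 to 0.15 for the highest Olig2 peak, -0.23 to 0.071 for the highest Sox10 peak and -0.085 to 0.23 for the Sox10 promoter. The causes were not tested.

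Whether same-numbered libraries belong together was not tested, and the reported fit holds no term for it. With genotype means subtracted, but not sex, 13 of 36 same-numbered pairs correlated over 0.1. Their correlations ran from -0.318 to 0.472 with a median of 0.059. Of 24 libraries 10 correlated best with one of their own number. With the replicate block the called Mobp peak was lost in Q140 against WT (adjusted p = 0.0565), and the wide Cnp site in Ttc25 passed there (0.0219). The reduced peak inside Mbp passed with that block in Q140_Msh3KO against Q140 (0.0489). Low counts limit the Olig2, Mog and Sox10 promoters most. The permutation within genotype and sex and the alternatives for peaks of other lineage genes were chosen after seeing the data.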
